A study of Saccharomyces cerevisiae with 23 samples.

Results

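Wild-type Saccharomyces cerevisiae, budding yeast, was compared at 48 h of culture and in log phase by counting spliced and unspliced RNA at the introns of its genes. The comparison uses the 11 wild-type libraries of a series of 23, chosen by their titles. They fall into 2 sets that the labels call WTa and WTb. WTa held 2 log-phase libraries and 3 at 48 h, and WTb held 3 of each. Every culture was of the BY strain background, grown in minimal medium with 2% D-glucose, and every library came from total RNA. The labels call the 48 h cells both saturation and stationary phase, and they give no optical density, doubling count or measure of remaining glucose. What distinguishes WTa from WTb is not stated. The strain names in the labels (JPY10H3, JPY2863, JPY28H5 and JPY28A8) change within groups and recur in other genotypes, so the sets were taken from the titles alone. Nothing says that replicates were separate cultures, so p-values measure the spread between these libraries, which may be technical.

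Budding yeast has few introns, and they lie disproportionately in ribosomal protein genes, which are highly transcribed in growing cells. The spliceosome recognises 3 short elements in an intron, which are a 5' splice site that usually reads GTATGT, a branch site that usually reads TACTAAC and holds the branching adenosine, and a terminal AG. Cells that run out of glucose reduce transcription of ribosomal protein genes and turn on genes for respiration. In multiplexed primer extension sequencing, reverse transcription begins at a primer beside each chosen intron, so that a read shows whether the RNA still holds that intron (premature) or has lost it (mature). The premature share is the percentage of an intron's counts that were premature. The abundance of a target is its premature plus mature count divided by the library total and multiplied by 1000000, called CPM here, and is therefore relative to the other primed targets. Primers differ in efficiency, so levels of different genes are not compared here.

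The splice elements of the introns on which the results turn are shown first, read from the R64 genome. The annotation gave coordinates for 237 of the 268 introns tested. Among these, 186 begin with GTATGT (78.5%) and 197 hold an exact TACTAAC (83.1%). In the lines below, the last 10 bases of the upstream exon precede the first 20 of the intron, and capitals mark the first 6 bases of the intron. The first 5 belong to the introns whose ratio of premature to mature RNA rose far at 48 h, and RPL30 is added because its own protein is known to bind its transcript.

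RPL18B: ttcctagctcGTATGTattgaaatctccct
RPL22B: ggctccaaacGTACGTtaattttcgttcct
DBP2: agaggtatcgGTATGTtaaaattttctcca
RPS9A: aacatgccaaGTACGTcgttaatcttctcc
RPL21B: tgggtaaatcGTATGTccatataacttcaa
RPL30: cgcagagatgGTCAGTataacatgatttta

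The next lines show introns whose ratio fell at 48 h, with CMC4 as an intron whose share stayed near its log-phase level while its abundance rose steeply.

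GCR1: aaatggtatgGTATGAtcataacacgcatt
PCH2: caaatgctcgGTATGTttttttcttttatt
MPT5: ttctcttatgGTATGTattatctcttaatt
QCR10: ctcaatggcgGTAAGTatcctatcatatta
CMC4: gccatccaagGTTTGTaatattaacttcaa

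Introns with the usual first 6 bases thus stand in both groups, and so do introns with other letters. In the branch windows below, capitals mark the stretch of 7 bases that best matches TACTAAC, with 8 bases to each side. RPS9A, PCH2 and CMC4 carry CACTAAC there.

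RPL18B branch: tatcccttTACTAACataacgta
RPL22B branch: gttgggatTACTAACataaaact
RPS9A branch: agagcgctCACTAACaatggttg
GCR1 branch: ggaccaaaTACTAACcaattaaa
PCH2 branch: agcactttCACTAACtgtctttg
CMC4 branch: tttcttttCACTAACgttttttc

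Short introns can be shown whole. Those of DMC1 and UBC5 fell in ratio at 48 h, and that of PMI40, of similar length, rose. Capitals mark the first 6 bases, the branch match and the last 3 bases.

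DMC1: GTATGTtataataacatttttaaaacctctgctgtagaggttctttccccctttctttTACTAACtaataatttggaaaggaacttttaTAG
UBC5: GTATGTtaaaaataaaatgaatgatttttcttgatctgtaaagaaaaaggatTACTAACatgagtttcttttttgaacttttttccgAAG
PMI40: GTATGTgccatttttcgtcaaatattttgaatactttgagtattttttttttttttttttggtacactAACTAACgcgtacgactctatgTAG

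The wild-type tables listed 284 introns, and the 268 found in all 11 libraries were tested, 104 in ribosomal protein genes and 164 in other genes. Library totals ran from 4369685 to 12068685 counts. Replicates of a group differed by a chi-square per degree of freedom of 26.0 or more, so none was another deposited again. The make-up of the libraries differed between conditions. Ribosomal protein introns took between 90.3% and 90.7% of the counts in the 5 log-phase libraries and between 71.7% and 75.3% in the 6 libraries at 48 h. In WTa, premature counts made up 1.60% and 1.62% in log phase and 3.54% to 3.74% at 48 h. In WTb they made up between 1.86% and 1.92% in log phase and between 4.93% and 5.02% at 48 h. In neither set did the conditions overlap on either measure.

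**Figure D1:**
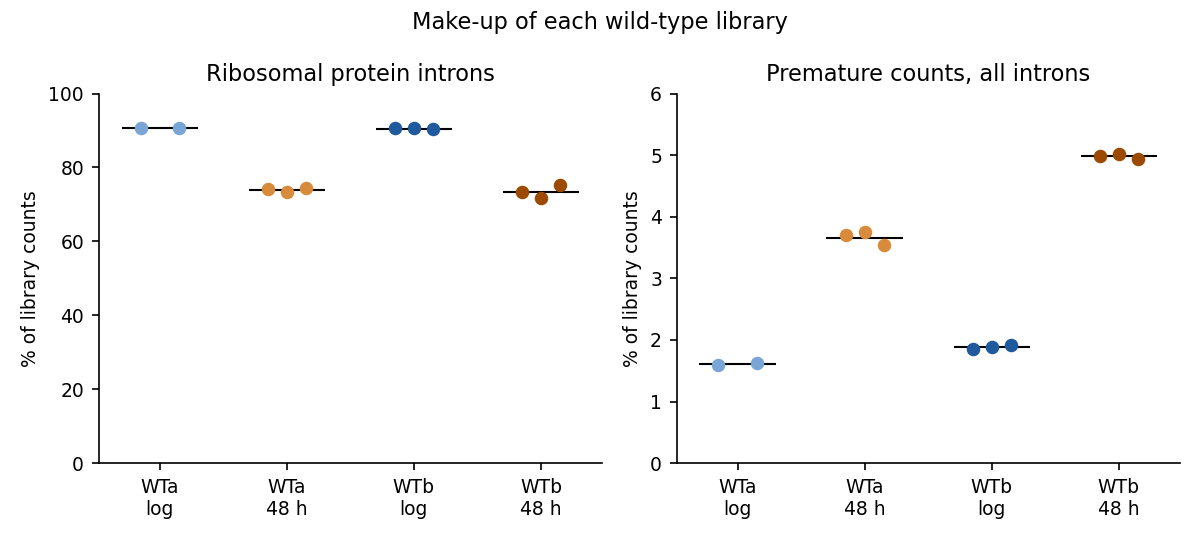
Share of each library's counts from ribosomal protein introns (left, %) and from premature RNA of all introns (right, %), one point per library with a line at the group mean. Log-phase libraries lie near 90% in the left panel and at 1.92% or lower in the right, and 48 h libraries lie at 75.3% or lower in the left and at 3.54% or higher in the right.

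The abundance of the targets shifted from ribosomal protein genes toward the rest. Of the 268 introns, 166 (61.9%) had a higher abundance at 48 h and 86 (32.1%) a lower one, by edgeR's quasi-likelihood test with Benjamini-Hochberg adjustment at a threshold of 0.05. Every 48 h library lay above every log-phase library of its set in 154 introns (57.5%), and below in 74 (27.6%). Among the 104 ribosomal protein introns, 18 were higher and 73 lower, with a median log2 change of -0.31. Among the 164 introns of other genes, 148 were higher and 13 lower, with a median of 1.20. These values depend on what is held constant. The median over all introns was 0.50 with library totals, 0.13 with TMM factors and -0.02 with RLE factors, and the split of calls became 133 to 111 and 126 to 131. Ribosomal protein introns were then 6 higher and 91 lower with TMM and 5 and 98 with RLE, and the others 127 and 20, and 121 and 33. A shift shared by all targets cannot be seen in these data.

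The steepest rises in abundance were in mitochondrial genes and in MRA1 and YCL012C, to which no role is assigned here. MRA1 (YPR010C-A) stood at 893 and 901 CPM in log phase in WTa and at 966, 1051 and 1045 in WTb. At 48 h it had 22813, 24125 and 22614 CPM in WTa and 25163, 28015 and 22292 in WTb. Its log2 change was 4.66 ± 0.06 (SE, adjusted p = 2.8e-23), and every 48 h library lay above every log-phase library. OM14, which encodes a protein of the mitochondrial outer membrane, rose by 4.46 ± 0.09 (SE) on the log2 scale, averaging 341 ± 44.5 CPM (SD, n = 5) in log phase and 7564 ± 2237 CPM (SD, n = 6) at 48 h. QCR10, a subunit of respiratory complex III, stood at 1112 and 1026 CPM in log phase in WTa and at 701, 790 and 846 in WTb. It reached 17569, 19326 and 17817 CPM at 48 h in WTa and 14065, 15161 and 14137 in WTb. Its log2 change was 4.15 ± 0.06 (SE, adjusted p = 6.5e-23). CMC4, which encodes a protein of the mitochondrial intermembrane space, rose by 3.89 on the log2 scale, COX4 of cytochrome c oxidase by 3.74, and YCL012C by 3.69.

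The 3 largest decreases in abundance without overlap were in SUN4, IMD4 and ASC1. SUN4, which encodes a cell wall protein, had 440 and 456 CPM in WTa and 482, 509 and 607 in WTb in log phase. It fell to 28.3, 32.0 and 27.7 CPM in WTa and to 45.4, 58.9 and 59.3 in WTb at 48 h, a log2 change of -3.61 ± 0.08 (SE, adjusted p = 1.9e-19). IMD4, an inosine monophosphate dehydrogenase of guanine nucleotide synthesis, averaged 575 ± 113 CPM (SD, n = 5) in log phase and 109 ± 30.6 CPM (SD, n = 6) at 48 h, and its log2 abundance changed by -2.36 ± 0.08 (SE). ASC1, which encodes a scaffold protein bound to the small ribosomal subunit, changed by -1.95 and TEF4, a subunit of translation elongation factor 1, by -1.63 on the log2 scale. The introns of IMD4, ASC1 and TEF4 also hold small nucleolar RNAs. Among ribosomal protein targets, both introns of RPS22B fell most, by 1.62 at the first and 1.85 at the second on the log2 scale, the latter a larger fall than that of TEF4. RPL18B stood at the other end, with an increase of 1.49 ± 0.06 (SE), and RPS14B rose by 1.19.

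The ratio of premature to mature RNA moved in both directions. It rose in 141 of the 268 introns (52.6%) and fell in 81 (30.2%), with a median log2 change of 0.28. In 118 introns (44.0%) the ratio was higher, and in 51 (19.0%) lower, in every 48 h library than in every log-phase library of the same set. In ribosomal protein genes 97 of 104 introns rose and 1 fell, the median being 1.06. Other genes split differently, with 44 of 164 introns higher, 80 lower and a median of -0.19. In WTa alone the other genes split into 40 higher and 88 lower, and in WTb alone into 46 higher and 51 lower. When the median intron of every library was set to 0 (limma on log2 odds, called centred libraries here), the overall split was 113 higher and 105 lower. It was then 82 and 4 for ribosomal protein introns and 31 and 101 for the others.

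A ratio can move through either form, so both were also tested per library total. Premature counts rose in 232 introns (86.6%) and fell in 14 (5.22%), and mature counts rose in 160 (59.7%) and fell in 90 (33.6%). With TMM factors these splits were 181 to 30 and 131 to 113. For ribosomal protein introns, 90 rose and 2 fell in premature counts, and 17 rose and 75 fell in mature counts. With TMM factors the premature split of this group was 63 to 10 and the mature split 5 to 93. Of the 97 ribosomal protein introns whose ratio rose, 61 had more premature and less mature RNA, 12 had more premature RNA with no mature call, and 11 had more of both. A further 11 had less mature RNA with no premature call, and 2 had less of both. In the other genes more RNA of both forms was general, whatever the ratio did. It held for 66 of the 80 whose ratio fell, 29 of the 44 whose ratio rose and 36 of the 40 without a call. Where both forms rose and the ratio fell, the mature form rose further by definition.

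**Figure D2:**
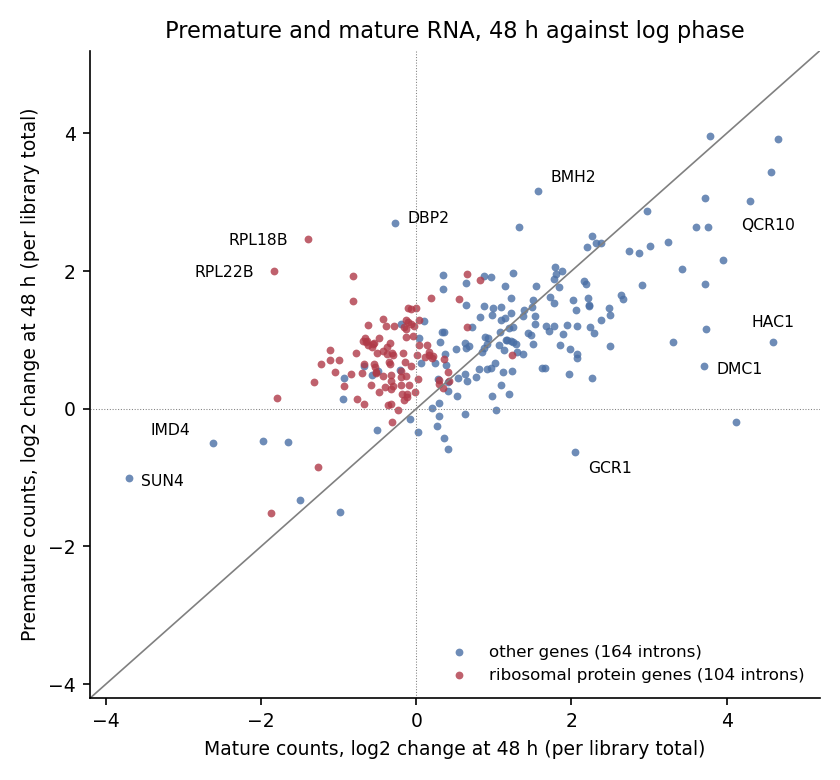
Log2 change of premature (vertical) against mature (horizontal) counts per library total at 48 h against log phase, one point per intron, with a diagonal where the ratio does not change. Ribosomal protein introns (red, 104) lie mostly above the diagonal and at or left of 0, and the other introns (blue, 164) lie mostly right of 0.

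Among the 10 introns with the largest rises in ratio and no overlap between conditions, 7 belong to ribosomal protein genes. That is close to their share of all introns higher without overlap, 81 of 118. RPL18B, the B copy of a gene for a large-subunit protein, lies on chromosome XIV from 64019 to 64450, minus strand. Its premature share in log phase was 42.3% and 46.3% in WTa and 48.4%, 46.5% and 51.7% in WTb. The 48 h libraries stood at 89.3%, 88.7% and 89.5% in WTa and 95.4%, 95.7% and 94.2% in WTb, so that the conditions were far apart in both sets. The log2 ratio rose by 3.87 ± 0.09 (SE, adjusted p = 1.2e-24), with premature counts up by 2.47 and mature counts changing by -1.39. At 48 h most RPL18B RNA caught by its primer was therefore unspliced, and its rise in abundance was a rise of the unspliced form.

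RPL22B, the B copy of another large-subunit gene, lies on chromosome VI from 64600 to 64920, minus strand. The protein of RPL22 is reported to act on the splicing of RPL22B RNA. Its premature share was 10.1% and 11.8% in WTa and 5.94%, 6.52% and 6.19% in WTb in log phase. It was 61.1%, 58.1% and 64.4% in WTa and 51.1%, 49.9% and 51.4% in WTb at 48 h, again with no overlap. The log2 ratio rose by 3.83 ± 0.10 (SE, adjusted p = 1.1e-23), while its abundance fell by 0.76. Unlike RPL18B, RPL22B thus had less RNA in all, with premature counts up by 2.00 and mature counts changing by -1.83.

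DBP2 encodes an RNA helicase whose level is reported to be set through its own intron, which is unusually long for yeast at 1002 bases (chromosome XIV from 414912 to 415913, plus strand). Its premature share was 8.49% and 8.14% in WTa and 7.39%, 6.99% and 7.55% in WTb in log phase. It climbed to 42.7%, 35.2% and 40.7% in WTa and to 42.1%, 47.7% and 33.1% in WTb. The log2 ratio rose by 2.99 ± 0.12 (SE, adjusted p = 1.7e-18). Premature counts rose by 2.7 and mature counts changed by -0.28 with library totals, and by 2.33 and -0.65 with TMM factors. The abundance of DBP2 changed by 0.34 with library totals and by -0.03 with TMM factors and -0.18 with RLE factors.

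RPS9A, a copy of a small-subunit gene, lies on chromosome XVI from 404957 to 405457, plus strand. Its premature share rose from 1.81% and 1.18% in WTa and 1.26%, 1.26% and 1.66% in WTb to 10.5%, 11.9% and 8.71% in WTa and 7.47%, 6.58% and 10.1% in WTb. The log2 change of its ratio was 2.76 ± 0.13 (SE). RPL21B rose by 2.38 ± 0.09 (SE), its share being 0.191% ± 0.0245 (SD, n = 5) in log phase and 1.0% ± 0.0872 (SD, n = 6) at 48 h. RPL14A rose by 1.96, the first intron of RPS22B by 1.96 and the first intron of RPL7A by 1.89 on the log2 scale. The share of the first RPS22B intron was 4.8% ± 1.15 (SD, n = 5) in log phase and 15.7% ± 2.61 (SD, n = 6) at 48 h.

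SUN4 and IMD4 rose in ratio as their RNA declined. The premature share of SUN4 was 1.21% and 0.941% in WTa and 1.18%, 1.50% and 1.46% in WTb in log phase. It was 9.56%, 6.47% and 3.05% in WTa and 13.6%, 6.34% and 7.72% in WTb at 48 h, and these libraries were widely spread. The log2 ratio rose by 2.7 ± 0.27 (SE, adjusted p = 3.0e-10), with premature counts changing by -1.01 and mature counts by -3.71. Because SUN4 abundance was low at 48 h, this change rests on few premature counts in each 48 h library. In IMD4 the ratio rose by 2.12 ± 0.11 (SE), with premature counts changing by -0.50 (-0.87 with TMM factors) and mature counts by -2.62. Other genes with large rises were BMH2, a 14-3-3 protein (1.60), UBC9, the SUMO-conjugating enzyme (1.60), SEC14, a phosphatidylinositol transfer protein (1.43), and STO1, the large subunit of the nuclear cap-binding complex (1.39). BMH2 gained RNA of both forms, 3.17 in premature and 1.56 in mature counts on the log2 scale.

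**Figure D3:**
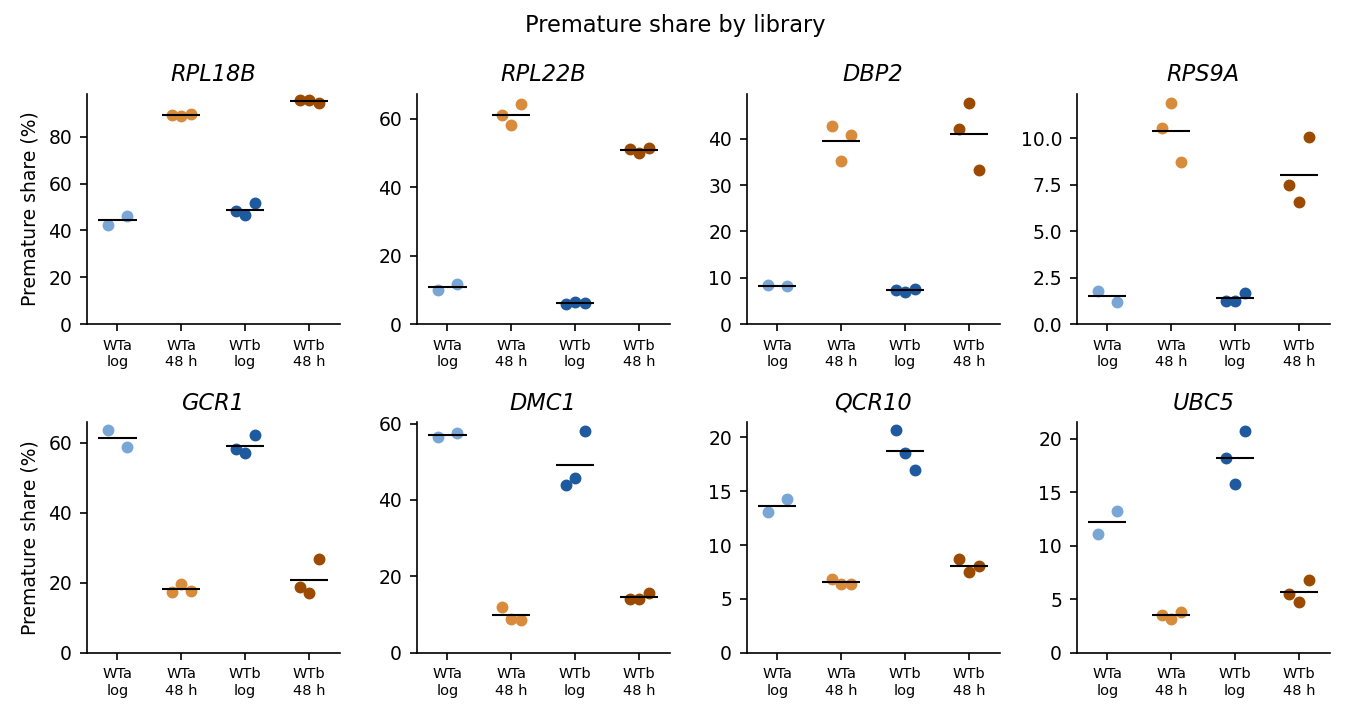
Premature share (%) of 8 introns in each of the 11 libraries, grouped by set and condition, with a line at the group mean and vertical axes that start at 0 and differ between panels. In the top row the 48 h libraries (orange) lie above the log-phase libraries (blue) of both sets, and in the bottom row they lie below them.

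The introns whose ratio fell most were those of a glycolytic regulator, of meiotic genes and of HAC1. GCR1, which encodes an activator of glycolytic and ribosomal protein genes, lies on chromosome XVI from 412262 to 413012, plus strand. Its premature share was 63.6% and 58.9% in WTa and 58.1%, 57.0% and 62.3% in WTb in log phase. It dropped to 17.4%, 19.5% and 17.6% in WTa and to 18.8%, 17.1% and 26.7% in WTb. The log2 ratio fell by 2.67 ± 0.12 (SE, adjusted p = 2.3e-17). Mature counts rose by 2.05 and premature counts fell by 0.63, or by 1.0 with TMM factors, so the total RNA rose while its unspliced part declined. Among the 81 introns of lower ratio, 4 had less premature and more mature RNA, and of these GCR1 changed most.

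HAC1, the transcription factor of the unfolded protein response, has an intron that is cut by Ire1 and joined by tRNA ligase, outside the spliceosome. It was almost entirely premature in both conditions, at 99.9% ± 0.0533 (SD, n = 5) in log phase and 99.2% ± 0.0884 (SD, n = 6) at 48 h. Its mature counts were 8 and 12 in WTa and 1, 4 and 9 in WTb in log phase. They were 70, 74 and 74 in WTa and 121, 157 and 110 in WTb at 48 h, beside 8180 to 15790 premature counts per library. The log2 ratio fell by 3.61 ± 0.22 (SE, adjusted p = 7.7e-15), a change that rests on 12 or fewer mature counts in each log-phase library.

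MPT5, which encodes an RNA-binding repressor of the Pumilio family, was also mostly premature, with a share of 98.0% ± 0.243 (SD, n = 5) in log phase and 90.3% ± 1.41 (SD, n = 6) at 48 h. Its log2 ratio fell by 2.34 ± 0.11 (SE). UBC5, a ubiquitin-conjugating enzyme, had a premature share of 11.1% and 13.2% in WTa and 18.2%, 15.8% and 20.7% in WTb in log phase. Lower shares of 3.55%, 3.20% and 3.79% in WTa and 5.51%, 4.79% and 6.78% in WTb followed at 48 h, and the log2 ratio fell by 1.90 ± 0.12 (SE). UBC5 abundance rose by 3.55 ± 0.06 (SE) on the log2 scale and averaged 75.6 ± 17.8 CPM (SD, n = 5) in log phase and 905 ± 71.4 CPM (SD, n = 6) at 48 h.

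Meiotic genes are normally expressed mainly in meiosis, and the labels mention no sporulation medium. Of 8 introns of the meiosis list, 0 rose and 6 fell in ratio, with a median log2 change of -1.80. Over all 268 introns 30.2% fell, with a median of 0.28, and over the 164 introns of other genes 48.8% fell, with a median of -0.19. In abundance 7 of the 8 rose and 1 fell, where 61.9% of all introns and 90.2% of those of other genes rose. DMC1, the meiotic strand-exchange protein, had a premature share of 56.4% and 57.6% in WTa and 44.0%, 45.8% and 57.9% in WTb in log phase. It came to 12.0%, 8.85% and 8.46% in WTa and to 14.2%, 14.1% and 15.7% in WTb at 48 h. Its log2 ratio fell by 3.08 ± 0.15 (SE, adjusted p = 1.6e-16), with mature counts up by 3.71 and premature counts by 0.62. With TMM factors the premature change was 0.26 and did not pass (adjusted p = 0.086). The ratio of SAE3, which acts with DMC1, fell by 4.31 ± 0.37 (SE), that of PCH2, a checkpoint protein, by 2.59, that of REC114 of double-strand break formation by 1.83, and that of MND1, a strand-exchange cofactor, by 1.77. LDS2, a spore wall gene outside that list, changed by -1.58, a call lost in WTb alone (-0.93) and with the strain name as a term (-1.13).

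Counts of several meiotic genes were low and differed between sets in log phase. In log phase SAE3 had 101 and 82 premature counts in WTa, and 7, 11 and 17 in WTb. Its mature counts were 3 and 4, and 1, 3 and 2, in the same libraries. LDS2 had 3.81 and 4.86 CPM in WTa and 0.425, 0.968 and 1.75 CPM in WTb in log phase, and MND1 14.6 and 13.6 CPM against 5.81, 5.81 and 7.71. In WTa alone 1 intron of the list rose and 6 fell, and in WTb alone 0 rose and 5 fell. The part of this difference in the fall of the list was not tested. The members that did not pass were REC107 at 0.24 and the second intron of HOP2 at 0.17.

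Respiratory and mitochondrial genes gained RNA, as did most other genes outside the ribosomal protein group, and most of their introns fell in ratio. All 14 introns of that list rose in abundance, or 14 with TMM factors and 12 with RLE factors. Their median log2 change was 2.12, beside 1.20 over the other genes, of which 90.2% rose. In ratio 1 rose and 10 fell, with a median of -0.83, where among other genes 26.8% were higher and 48.8% lower. In WTb alone 0 rose and 7 fell. QCR10, whose intron of 63 bases lies on chromosome VIII from 107832 to 107894, had a premature share of 13.1% and 14.2% in WTa and 20.7%, 18.5% and 17.0% in WTb in log phase. By 48 h the share was 6.82%, 6.42% and 6.40% in WTa and 8.68%, 7.55% and 8.06% in WTb, lower in every library, and the log2 ratio fell by 1.28 ± 0.08 (SE). The ratio of OM14 changed by -1.13, of COX4 by -1.13 and of QCR9, another complex III subunit, by -0.96. CMC4 was the exception, with a premature share of 52.1% ± 6.90 (SD, n = 5) in log phase and 53.9% ± 7.85 (SD, n = 6) at 48 h, and a log2 change of 0.18 (adjusted p = 0.026). That call was lost in either set alone, with the strain name as a term, with the replicate number as a block and with all 23 libraries, and the value turned to -0.10 with centred libraries. It was also lost on leaving out WTa log-phase replicate 2 (0.17) or 3 (0.18), WTa 48 h replicate 1 (0.15), or WTb log-phase replicate 1 (0.17) or 2 (0.16). As the sequences above show, the CMC4 intron begins with GTTTGT and that of QCR10 with GTAAGT. Whether these letters bear on the difference was not tested.

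The next lists are read against the 164 introns of other genes, of which 90.2% were higher in abundance, 26.8% higher in ratio and 48.8% lower in ratio. Over all 268 introns these shares were 61.9%, 52.6% and 30.2%. With centred libraries 31 of the 164 rose and 101 fell in ratio. Vesicle transport genes rose in abundance in 20 of 21 introns, near the share of other genes, and in ratio 3 rose and 8 fell (2 and 15 with centred libraries). BOS1, a SNARE of transport between the endoplasmic reticulum and the Golgi, changed by 1.88 in abundance and by -1.28 in ratio on the log2 scale. The 9 introns of ubiquitin and proteasome genes all rose in abundance, and in ratio 4 rose and 2 fell (3 and 5 with centred libraries), from UBC9 at 1.60 to UBC5 at -1.90. Signalling and cell cycle genes rose in abundance in 12 of 12 introns, and in ratio 4 rose and 6 fell, close to the shares of other genes. In the transcription list of 12 introns, 2 rose and 7 fell in ratio, the lowest after GCR1 being HPC2 of the HIR histone regulators at -1.46.

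RNA processing and export genes had 8 introns of 19 higher and 5 lower in ratio, a split that became 5 and 8 with centred libraries. In abundance 17 were higher, close to the share of other genes. Besides DBP2 and STO1 they include YRA1, an mRNA export factor reported to limit its own splicing. Its ratio rose by 0.61, but its share differed more between sets than between conditions. YRA1 stood at 28.6% and 26.6% in WTa and 65.8%, 63.7% and 59.6% in WTb in log phase. The 48 h libraries had 38.1%, 34.8% and 33.5% in WTa and 74.9%, 70.6% and 75.0% in WTb. MTR2, another export factor, was nearly all premature, at 98.0% ± 0.206 (SD, n = 5) and 98.5% ± 0.142 (SD, n = 6), with a log2 change of 0.43. That call was lost with centred libraries (0.15, adjusted p = 0.15). MUD1, a U1 particle protein, changed by 0.27 (adjusted p = 0.026), a call lost in WTa alone (0.15), with the strain name as a term (0.16) and on leaving out WTa log-phase replicate 2 (0.25), WTa 48 h replicate 2 (0.25), WTb log-phase replicate 1 (0.24) or 2 (0.26), or WTb 48 h replicate 3 (0.21).

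In the cytoskeleton list 5 introns rose and 5 fell in ratio of 12 (4 and 6 with centred libraries), again beside 26.8% and 48.8% of the introns of other genes. TUB1 and TUB3, which encode the alpha-tubulins, rose in ratio by 1.37 and 1.09 and fell in abundance by 0.84 and 0.87. ACT1, the actin gene, rose in abundance by 0.95, and its ratio changed by -0.37, a change of -0.78 in WTa and 0.03 in WTb. In the lipid and GPI synthesis list 4 rose and 2 fell of 7 (2 and 2 with centred libraries), led by PMI40, a mannose-6-phosphate isomerase, at 1.28. In the translation factor list 3 rose, ASC1 by 1.50 and TEF4 by 1.16 among them, and 2 fell of 6 (3 and 3 with centred libraries). Among the introns with coordinates, 6 hold a small nucleolar RNA, of which 3 rose and 2 fell in ratio. Over all introns 52.6% rose and 30.2% fell. Introns without coordinates were not searched for such RNAs.

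Genes reported to regulate their own splicing rose in ratio in 8 of 9 introns, with a median log2 change of 1.49, where 52.6% of all introns and 93.3% of ribosomal protein introns rose. RPL30, whose protein binds its own transcript, lies on chromosome VII from 439094 to 439323. Its premature share was 0.327% ± 0.0477 (SD, n = 5) in log phase and 0.922% ± 0.0805 (SD, n = 6) at 48 h, and the log2 ratio rose by 1.49 ± 0.09 (SE). The exception was RPS14B, whose splicing is reported to be held back by the RPS14 protein. Its share was 11% and 11.6% in WTa and 9.43%, 9.76% and 8.27% in WTb in log phase. It declined to 8.15%, 8.35% and 6.83% in WTa and to 7.70%, 6.70% and 8.22% in WTb. The log2 ratio fell by 0.45 ± 0.09 (SE, adjusted p = 2.0e-05). RPS14B was the lone ribosomal protein intron to fall in the fit of both sets without centring. With centred libraries 4 ribosomal protein introns fell, and in WTa alone 4 did. Of this list 7 of 9 are ribosomal protein introns, in which rises were general.

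Most yeast ribosomal protein genes exist as an A and a B copy, and 46 pairs of introns are set side by side here. The sources used here do not give how reads of nearly identical copies were told apart, so values of single copies are uncertain to that extent. Both copies rose in ratio in 39 of the 46 pairs, where 97 of all 104 ribosomal protein introns (93.3%) rose. The change of the B copy was the larger in 26, and the median absolute difference between copies was 0.55 on the log2 scale. In 13 pairs the copies differed by over 1 log2 unit. The difference between copies was not tested.

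Among these pairs RPL22 had the widest gap. RPL22A rose by 1.83 ± 0.08 (SE) where RPL22B rose by 3.83. In RPS21 the order was reversed, as RPS21A rose by 1.84 ± 0.11 (SE) and RPS21B changed by -0.03 ± 0.08 (SE, adjusted p = 0.73), though with centred libraries RPS21B fell by 0.31 (limma, adjusted p = 0.0013). The premature share of RPS21A was 0.417% and 0.271% in WTa and 0.291%, 0.261% and 0.305% in WTb in log phase, and at 48 h 1.08%, 0.987% and 1.03% in WTa and 1.21%, 1.24% and 1.18% in WTb. That of RPS21B was 1.71% ± 0.138 (SD, n = 5) and 1.66% ± 0.149 (SD, n = 6), with overlapping libraries.

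In RPS9 both copies rose, RPS9A by 2.76 and RPS9B by 1.35. In RPL6 the B copy rose by 1.70, and RPL6A changed by 0.34 with opposite directions in the sets, -0.39 in WTa and 1.06 in WTb. Its call was lost with centred libraries (0.076) and with the strain name as a term (0.28). In RPS14 the A copy rose by 0.89 and the B copy fell by 0.45. In all 7 pairs without a rise in both copies, the other copy rose, as did 93.3% of all ribosomal protein introns. The copies that did not rise there were RPS21B, RPS14B, RPS27A, RPL24B, RPS17B, RPL33A and the second intron of RPL7B. They were chosen for naming after their values were seen.

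**Figure D4:**
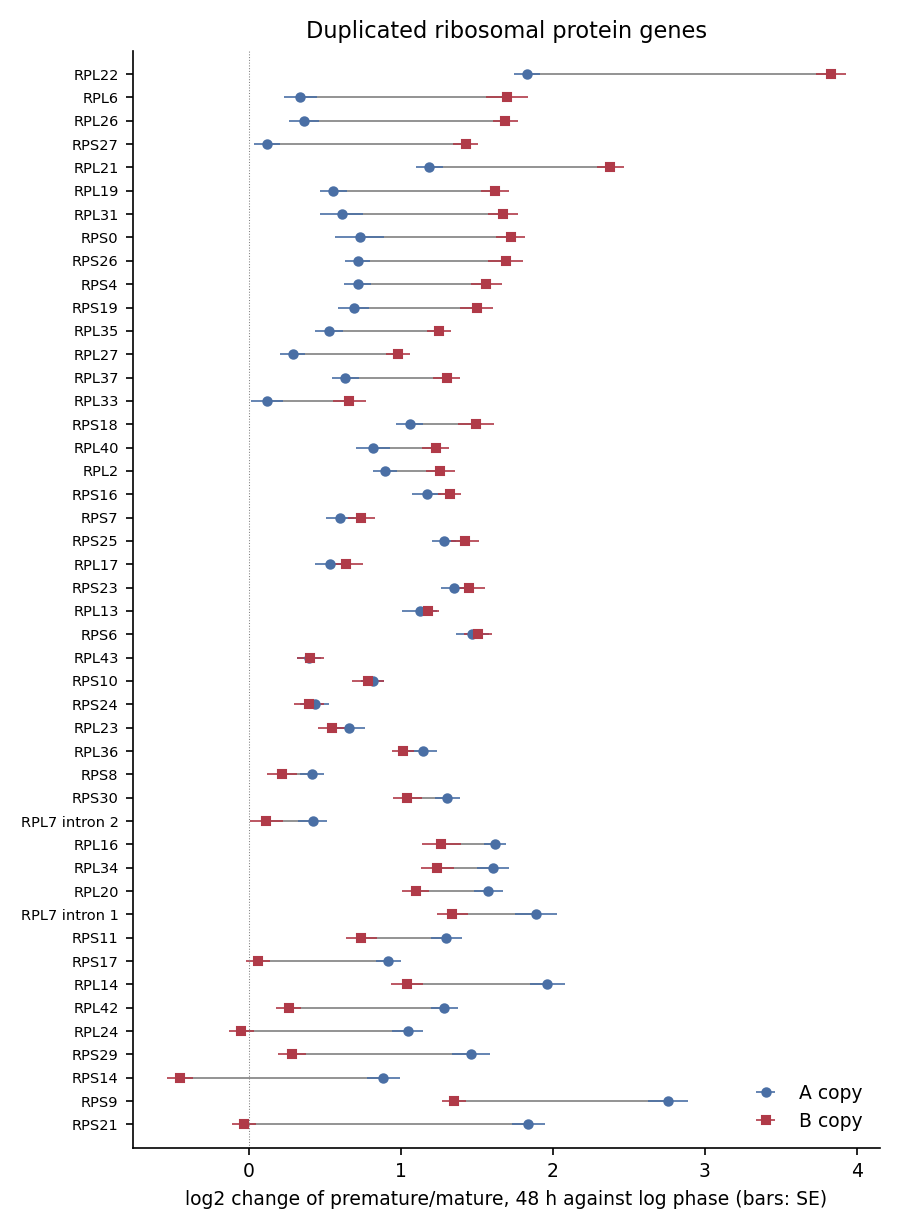
Log2 change of the ratio of premature to mature RNA at 48 h against log phase for the A copy (blue circles) and the B copy (red squares) of 46 ribosomal protein intron pairs, sorted by the difference between copies, with bars for the standard error. Among the pairs shown, RPL22 has the largest excess of the B copy, and RPS21 the largest excess of the A copy.

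Genes with 2 introns allow a comparison within the same RNA. Intron numbers are the authors' own. For RPS22B, RPL7A and TAD3 they could not be tied to annotated introns. The intron numbered first in these genes may therefore not come first in the RNA. In RPS22B the first intron rose in ratio by 1.96 ± 0.12 (SE) and the second by 0.37 ± 0.09 (SE), and the second call was lost in WTb alone (0.23) and with centred libraries (0.097). In RPL7A the first rose by 1.89 ± 0.14 (SE) and the second by 0.42 ± 0.10 (SE), the latter call being lost in WTa alone (0.14) and with centred libraries (0.14). In RPL7B the first rose by 1.34 ± 0.10 (SE), and the second, which holds a small nucleolar RNA, changed by 0.12 ± 0.11 (SE, adjusted p = 0.31). The introns of RPS22B and RPL7A had no coordinates and could not be searched for such RNAs. In these 3 ribosomal protein genes the change of the intron numbered first was the more positive in each case. The differences between introns were not tested, and no order along the RNA is established for RPS22B and RPL7A.

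Among the 5 other genes the change of the intron numbered first was also the more positive in 4. TAD3, whose intron order is not established, was the exception, and here too the differences were not tested. SUS1, of the SAGA and TREX-2 complexes, fell by 0.30 at its first and 0.57 at its second intron, the first call being lost with the strain name as a term (-0.24). VMA9, a subunit of the vacuolar proton pump, changed by -0.16 (adjusted p = 0.15) and -0.78. The first passed in WTa alone (-0.31), with centred libraries (-0.44) and without WTb 48 h replicate 3 (-0.23), and the second was lost in WTb alone (-0.23). YOS1, of vesicle transport, changed by -0.04 (adjusted p = 0.75) and -0.47. Its first intron passed in WTa alone (-0.31) and with centred libraries (-0.31), and the call of its second was lost in WTb alone (-0.28). In HMRA1, a silent mating-type gene identical in sequence to the active copy in a-type cells, the first intron changed by 0.25 and the second by -0.98, with rises in abundance of 2.27 and 2.54. The call of the first was lost without WTa log-phase replicate 2 (0.18), with the strain name as a term (0.24), with centred libraries (-0.03) and in WTb alone (-0.02). Reads of the silent and active copies cannot be told apart. In TAD3, a tRNA deaminase subunit, the first changed by -1.74 in WTa and 0.25 in WTb, and the second by -1.08 and 0.64. The mean of both sets was -0.75 for the first and -0.22 (adjusted p = 0.055) for the second, which passed without WTb log-phase replicate 1 (-0.25) or WTb 48 h replicate 3 (-0.25), with limma at either pseudocount (-0.22) and with centred libraries (-0.50).

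Intron length and the letters of the 5' splice site differ between the groups of genes, so they were described within each. Of the ribosomal protein introns with coordinates, 87 of 88 were 200 bases or longer. Among the other genes, the 22 introns of at least 200 bases had 11 rises and 8 falls in ratio, with a median log2 change of 0.25. The 127 shorter ones had 30 rises and 64 falls, with a median of -0.25. Ribosomal protein introns that begin with GTATGT rose in 62 of 65, and those with another start in 20 of 23. Other genes with GTATGT had 33 rises and 55 falls of 121, and those with another start 8 and 17 of 28. The 11 introns of other genes that begin with GTAAGT, QCR10 among them, had 2 rises and 7 falls. The log-phase share went along with the direction as well. In other genes with a log-phase share from 1 to 10%, 28 rose and 22 fell of 74. From 10 to 50%, 11 rose and 44 fell of 67, and from 50% upward 2 rose and 14 fell of 20. The log-phase share enters the ratio change itself, so this last comparison is a description.

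The wild-type sets shared the direction of most changes and differed in size. The ratio change had the same sign in 226 of the 268 introns, with a median of 0.15 in WTa and 0.45 in WTb. The change was more positive in WTb than in WTa in 79 introns (29.5%) and less positive in 10 (3.73%). With centred libraries these counts were 37 and 27, and the count of 10 became 5 without WTa log-phase replicate 3 and 6 without WTb log-phase replicate 2. In abundance the sets differed in 34 introns (12.7%) with a more positive and 9 (3.36%) with a less positive change in WTb. These counts were 62 and 2 with TMM factors, and 14 and 3 with all 23 libraries. Without WTa log-phase replicate 2 these were 18 and 1, and without replicate 3 of that group 17 and 4. Tested within each set, 109 introns were higher in both sets, 50 lower in both, and 8 opposite. The opposite ones were RPL6A, RPL27A, PAL2, CGI121, KEI1, RFA2, TMA20 and the second intron of TAD3.

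Of the 104 ribosomal protein introns, 32 had a more positive change in WTb and 5 a less positive one. These lie near the shares over all introns, 29.5% and 3.73%. RPL16B had a premature share of 0.600% and 0.901% in WTa and 0.269%, 0.278% and 0.261% in WTb in log phase. The 48 h values were 0.692%, 0.909% and 0.895% in WTa and 1.51%, 1.52% and 1.07% in WTb. Its log2 change was 0.19 in WTa and 2.35 in WTb, a difference of 2.16 (adjusted p = 4.1e-07). In WTa the conditions overlapped, while in WTb they were apart. RPS0A changed by -0.43 in WTa and 1.89 in WTb, at shares of 0.314% or less in every library. In the opposite direction, USV1, a transcription factor gene, changed by -0.07 in WTa and -1.56 in WTb, from a log-phase share of 9.19% and 9.58% in WTa and of 26.5%, 25.1% and 26.3% in WTb. PAL2 changed by 0.72 in WTa and -0.51 in WTb. RPL18B, with the highest ratio change of all introns, rose by 3.37 in WTa and 4.36 in WTb. RPL22B rose by 3.70 and 3.96, and the difference between sets did not pass the test (adjusted p = 0.31). GCR1 fell by 2.84 and 2.49 (difference 0.35, adjusted p = 0.29).

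**Figure D5:**
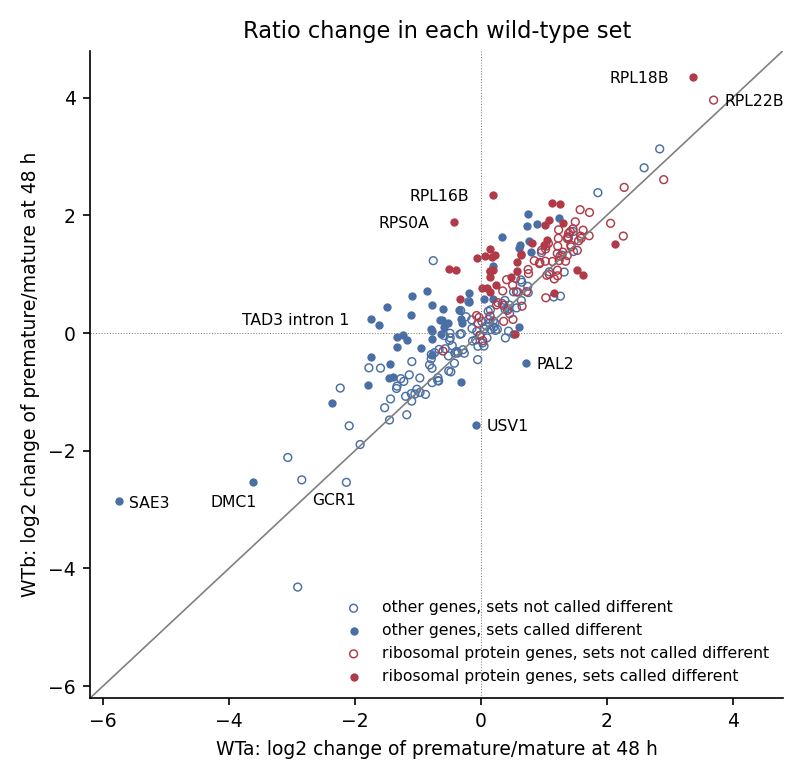
Log2 change of the ratio at 48 h against log phase in WTb (vertical) against WTa (horizontal), one point per intron, filled where the sets differed in the edgeR test, with a diagonal of equal change. Filled points lie mostly above the diagonal, 79 of 89 having a more positive change in WTb.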

How the data were processed

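Per the labels, total RNA was extracted with hot acid phenol and read by multiplexed primer extension sequencing. The submitters' processing notes list STAR 2.7.2b, fastp 0.20.0, FastQC and build R64 without saying what each did. The authors deposited mature and premature counts for each intron and library, which are whole numbers without normalization. The rules for calling a read mature, premature or of a gene copy, and any use of molecular identifiers, are not given in the sources used here.

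From these counts, introns in all 11 wild-type libraries with a mean of at least 20 counts were tested with the quasi-likelihood test of edgeR 4.0.16 in R 4.3.3. For the ratio, each library gave 1 premature and 1 mature column, and the model had library terms plus premature terms by group. Abundance and each form used library totals without further scaling. The change is the mean of the WTa and WTb changes, all tests were two-sided, and p-values were adjusted over 268 introns (Benjamini-Hochberg, threshold 0.05). A set difference is the WTb minus the WTa change. Error is the standard error (SE) of the log2 change. CPM, shares and figures came from Python 3.11.15 with pandas 2.3.3, numpy 2.4.6 and matplotlib 3.10.9. Coordinates and sequences are from RefSeq's copy of R64, matched by systematic name. Scripts were tested on simulated counts.

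Alternatives were DESeq2 1.42.0, limma 3.58.1 on log2 odds (pseudocount 0.5 or 5, or libraries centred), a mean count of 100 or no minimum, all 23 libraries, each set alone, a strain name term, a block for the replicate number, TMM or RLE factors, and leaving out each library. Introns were named by a rule: the largest changes per direction among those that passed without overlap, the 2 smallest p-values per list, the paralogue pairs farthest apart, genes with 2 introns and a fixed set of well-studied genes. Not all that it names are given, and names outside it are so described. The lists and members were chosen with earlier results of these data known. A further duplicated pair is not reported here. Libraries were grouped by title.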

Additional observations from a re-analysis of the deposited data

Results flagged for a closer look

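Values here are differences between the wild-type sets, the log2 change at 48 h in WTb minus that in WTa, for named introns in which this difference passed the edgeR test. In the ratio of premature to mature RNA, WTb was more positive for SAE3 (2.89), RPS0A (2.32), RPL16B (2.16), TAD3 intron 1 (1.99), TAD3 intron 2 (1.72), RPL6A (1.45), STO1 (1.28), MND1 (1.19), VMA9 intron 2 (1.11), PMI40 (1.09), DMC1 (1.09) and RPL18B (0.99). The same direction held for TUB1 (0.97), ACT1 (0.81), TEF4 (0.80), BMH2 (0.71), TUB3 (0.57), RPL7A intron 2 (0.56) and YOS1 intron 1 (0.55). WTb was less positive for USV1 (-1.49), PAL2 (-1.23), RPS30A (-0.63), RPL22A (-0.61) and HMRA1 intron 1 (-0.53). The call for SAE3 was lost without WTa log-phase replicate 2 (2.56) or WTb log-phase replicate 2 (2.46), and that for RPL22A without WTa log-phase replicate 3 (-0.50).

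In abundance, WTb was more positive for LDS2 (2.06), GMC2 of the meiotic synaptonemal complex (2.04), SAE3 (2.03), MND1 (1.90), DMC1 (0.99), RPL18B (0.95), SUN4 (0.64), RPS22B intron 2 (0.61), RPS22B intron 1 (0.58), OM14 (0.45), COX4 (0.40) and UBC5 (0.40). It was less positive for DBP2 (-0.54), RPO26, a shared RNA polymerase subunit (-0.42), RPL14B (-0.36) and RPL2B (-0.33). Without WTa log-phase replicate 2 the calls were lost for DBP2 (-0.48), RPO26 (-0.41), RPL14B (-0.31) and RPL2B (-0.37), RPL14B and RPL2B also on leaving out several other libraries, with TMM factors (-0.30 and -0.26) and with all 23 libraries (-0.36 and -0.33). The 5 largest of these are meiotic or sporulation genes, in which the WTa log-phase libraries were higher than those of WTb. GMC2 had 6.88 and 8.14 CPM in WTa and 0.567, 1.25 and 2.33 CPM in WTb in log phase.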

How the results depend on the processing

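Most named introns kept their direction and their side of the threshold. Of 1514 values of the ratio change of named introns under the alternatives, 1450 did so, as did 737 of 751 for abundance. Many of these introns were named for large changes or small p-values in the same libraries. That choice favours the tallies, and they do not extend to introns not named. Introns lower in ratio numbered 52 in WTb alone. Introns lower in abundance numbered 131 with RLE factors and 131 with DESeq2. Introns lower in premature counts numbered 30 with TMM factors, 27 in WTa alone and 7 in WTb alone. Set differences in ratio were 37 more and 27 less positive in WTb with centred libraries, and 6 were less positive with all 23 libraries. In abundance they were 62 and 2 with TMM factors, and 14 and 3 with all 23 libraries. Leaving out each library in turn gave 5 to 15 less positive in ratio, and 17 to 45 more and 1 to 17 less positive in abundance. Of these, the less positive count in abundance was 1 and 4 without WTa log-phase replicates 2 and 3, 15, 4 and 3 without WTa 48 h replicates 1, 2 and 3, 4 without WTb log-phase replicate 2, and 3, 5 and 17 without WTb 48 h replicates 1, 2 and 3. Without 1 of the 2 WTa log-phase libraries the other was assumed to vary like the remaining groups.

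Same-numbered libraries did not deviate together in all pairs. Their correlations were 0.0416 and 0.215 in WTa and 0.0956, -0.159 and 0.0248 in WTb. These come from deviations around the means of groups of 2 or 3 libraries, which constrains them. They therefore cannot settle whether the numbers pair the libraries. With the replicate block, 138 introns were higher and 80 lower in ratio, and 20 were less positive in abundance in WTb.

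These ratio changes turned sign. In WTb alone they were 0.030 for ACT1, 0.25 for TAD3 intron 1, 0.64 for TAD3 intron 2, 0.24 for YOS1 intron 1, -0.018 for HMRA1 intron 1 and -0.51 for PAL2. In WTa alone they were -0.39 for RPL6A, -0.43 for RPS0A and -0.064 for RPL7B intron 2. With centred libraries they were -0.10 for CMC4, -0.030 for HMRA1 intron 1, -0.0047 for MUD1, -0.17 for PAL2 and -0.16 for RPL7B intron 2. PAL2 was -0.027 with the strain name as a term. Leaving out each library, RPS21B ran from -0.054 to 0.012 and YOS1 intron 1 from -0.10 to 0.020, and neither passed in any of these fits. With centred libraries both passed, at -0.31 each, and YOS1 intron 1 also passed in WTa alone (-0.31). In abundance, DBP2 was -0.031 with TMM factors, -0.18 with RLE factors and -0.18 with DESeq2, RPS21B was -0.093 with RLE factors and -0.093 with DESeq2, and GMC2 was -0.19 in WTa alone. The cause was not tested. Depth limited HAC1 and the meiotic genes, with 12 or fewer mature HAC1 counts in each log-phase library. It also limited the premature counts of SUN4 at 48 h.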

Other observations

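Of the 16 introns not tested, 9 were listed in all 6 WTb libraries and in none of WTa, and they are described in WTb alone. No test was run on them. MMS2, which acts in error-free DNA damage tolerance, went from 1394 to 8849 CPM (group means, n = 3 each), at a premature share of 4.87% ± 0.362 (SD, n = 3) in log phase and 3.34% ± 0.441 (SD, n = 3) at 48 h. SAR1, the GTPase of COPII vesicle budding, had a share of 1.57% ± 0.140 (SD, n = 3) and then 3.48% ± 0.473 (SD, n = 3). GIM4, a prefoldin subunit, stood at 9.91% ± 0.238 (SD, n = 3) and 12.3% ± 0.968 (SD, n = 3). The others of these 9 were EFM5 intron 2, GOT1, MAF1, PSP2, YDL012C and YNL050C, whose mean CPM was also higher at 48 h.

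The remaining 7 were listed in 3 to 10 of the 11 libraries, and they include the meiotic genes HFM1, MEI4, SPO22, SPO1, AMA1 and the first intron of HOP2. HFM1, a meiotic DNA helicase, was listed in 4 libraries, all at 48 h, with a mean share of 98.0% in 2 WTa and 98.3% in 2 WTb libraries. MEI4, of double-strand break formation, had a mean share of 99.5% in 2 WTa log-phase libraries and 82.8% at 48 h in WTa, and of 92.1% in 2 WTb log-phase libraries and 83.5% at 48 h in WTb. Its mean CPM was 21.7 and then 6.66 in WTa, and 1.88 and then 6.51 in WTb. SPO22 went the other way, from 85.7% in 1 WTa log-phase library to a mean of 96.2% at 48 h. In WTb its mean went from 64.6% to 92.1%. Its mean log-phase CPM was 0.791 in WTa and 0.990 in WTb. AMA1 had 90.7% in 1 WTa log-phase library and a mean of 92.1% at 48 h. Mean shares of SPO1 fell from 96.3% to 61.8% in WTa. In WTb SPO1 had 93.8% in 1 log-phase library and a mean of 76.1% at 48 h. HOP2 intron 1 fell from 66.1% to 36.2% in WTb. BUD25, listed in 3 libraries at 48 h alone, had a mean share of 96.7% in 1 WTa and 91.1% in 2 WTb libraries.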
